A study of Mus musculus with 4 samples.

Results

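The genes described here are markers of B cells and of plasma cells, measured in thyroids of mice treated with an antibody against PD-L1. The set was defined as 9 symbols, and every row of the deposited count table with one of those symbols was taken. Of the 9, 8 were listed among the 16218 genes of the table: the B cell genes Ms4a1, Cd79a, Cd79b, Blk, Cr2 and Pax5, and the plasma cell genes Jchain and Mzb1. Tnfrsf17, the gene of the plasma cell survival receptor BCMA, had no row and is not analysed here. All 8 passed the filter on low counts, as did 16217 genes in all. Every listed gene already had at least 100 counts in 1 or more libraries, so shares over all tested genes leave out genes of lower counts. Whether Tnfrsf17 had no row for that reason is not given. The samples were 4 RNA-seq libraries of whole thyroid from mice of the NOD.H-2h4 strain, which readily develop autoimmune thyroiditis. The anti-PD-L1 libraries, PDL110 (replicate 1) and PDL18 (replicate 2), came from mice injected 3 times a week for 2 weeks with a monoclonal antibody that blocks PD-L1, and the IgG libraries, CTR1 (replicate 1) and CTR2 (replicate 2), from mice given an isotype control IgG on the same schedule. The labels give no age or sex, and their batch field holds a different antibody clone name for each library (10F.9G2 and 10F.9G3 for anti-PD-L1, LTF2 and LTF3 for IgG).

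B cells recognise antigen through a membrane antibody that signals through the paired chains CD79A and CD79B. After activation, some B cells become plasma cells, which turn off much of the B cell program and devote themselves to secreting antibody. NOD.H-2h4 mice make autoantibodies against thyroglobulin, and lymphocytes, B cells among them, collect in the thyroid in autoimmune thyroiditis. PD-1, the receptor of PD-L1, restrains T cells and is also high on the helper T cells that support B cells in germinal centres. In whole tissue, fewer cells of a type and less RNA per cell cannot be told apart.

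Total counts were 75591923 and 77685257 in the anti-PD-L1 libraries PDL110 and PDL18, and 79663374.5 and 77492328 in the IgG libraries CTR1 and CTR2. Tg, the gene of thyroglobulin and the defining product of thyroid follicular cells, took 4.34% of counts in PDL110 and 14.6% to 16.95% in the other 3 libraries, and all 12 follicular markers searched for were listed. PDL110 also stood apart in sex-linked RNAs: Xist, the RNA of the inactive X chromosome, was at 1.40 CPM there and at 67.7 to 72.7 CPM in the remaining 3, and Ddx3y, a gene of the Y chromosome, at 62.6 CPM there and at 0.35 to 0.79 CPM in the remaining 3. By these RNAs PDL110 was of male type and the remaining 3 of female type, so sex differed inside the anti-PD-L1 group and not inside the IgG group. The part of sex in the group differences was not tested. CPM here is the count scaled to library size, with TMM factors between libraries. The fold changes of the 8 genes, and each median given below for a wider list that moved by more than 1.5 times or changed sign, are therefore also given without PDL110, a step chosen for the lists after seeing the data. With edgeR's quasi-likelihood test and Benjamini-Hochberg adjustment, 0 of 16217 genes (0% of those tested) had an adjusted p under 0.05. At an unadjusted p under 0.05 it had 4.96% of genes higher and 1.1% lower in anti-PD-L1 thyroids, and limma voom called 0 genes with 6.46% at an unadjusted p under 0.05. DESeq2 called 2.93% higher and 0.327% lower.

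The B cell genes did not separate the treatments. All 6 had overlapping groups, as did 11418 of the 16217 tested genes. The order of the libraries was nearly the same for each of the 6: PDL110 and the IgG library CTR2 were high, PDL18 was in between, and CTR1 was lowest. The order PDL110, CTR2, PDL18, CTR1 held for Ms4a1, Cd79a, Cd79b and Blk, and for 3.45% of all tested genes. Below, a gene is called separated upward when its lower anti-PD-L1 value exceeds its higher IgG value, which 16.5% of tested genes did, and separated downward in the reverse case, which 13.1% did. The median log2 fold change of the 6 genes was 0.35, against 0.00 over all tested genes. Their summed level was 120 and 61.2 CPM in PDL110 and PDL18 (anti-PD-L1), against 28.3 and 103.5 CPM in CTR1 and CTR2 (IgG).

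Ms4a1, on chromosome 19 from 11249675 to 11266241 of GRCm38 (mm10), encodes the B cell surface protein CD20. It had 22.5 and 10.7 CPM in PDL110 and PDL18 (anti-PD-L1), against 3.35 and 17.1 CPM in CTR1 and CTR2 (IgG). CTR2 lay between the anti-PD-L1 libraries, so the groups overlapped. The log2 fold change was 0.70 ± 0.85 (SE, n = 2 per group; edgeR adjusted p = 1.00).

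Cd79a, on chromosome 7 from 24897381 to 24902197, encodes the alpha signalling chain of the B cell receptor. It had 47.4 and 21.1 CPM in PDL110 and PDL18, against 2.56 and 35.1 CPM in CTR1 and CTR2. CTR1 was lower than CTR2 by a factor of 13.7 although both mice had received IgG, the widest gap between replicates among the 8 genes. The log2 fold change was 0.86 ± 1.22 (edgeR adjusted p = 1.00).

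Cd79b, on chromosome 11 from 106311341 to 106314762, encodes the partner beta chain. It had 32.0 and 19.1 CPM in PDL110 and PDL18, against 15.8 and 28.1 CPM in CTR1 and CTR2. The order of libraries was that of Cd79a, but the gap within the IgG group was only 1.78-fold. The ratio of Cd79b to Cd79a was accordingly 0.676 and 0.904 in PDL110 and PDL18, against 6.18 and 0.80 in CTR1 and CTR2, so CTR1 alone had a ratio above 1. Cd22, the gene of an inhibitory B cell receptor, was chosen after its values were seen. It had 15.0 and 6.96 CPM in PDL110 and PDL18 and nearly equal values of 10.2 and 10.1 CPM in CTR1 and CTR2. Unlike in the 6 B cell genes, its lowest library was PDL18 and not CTR1.

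Blk, on chromosome 14 from 63372836 to 63417037, encodes a Src-family kinase of the B cell receptor pathway. It had 6.56 and 3.92 CPM in PDL110 and PDL18, against 1.78 and 5.70 CPM in CTR1 and CTR2, again with CTR2 inside the anti-PD-L1 range (log2 fold change 0.49 ± 0.64). Pax5, on chromosome 4 from 44524757 to 44710487, encodes the transcription factor that holds cells to the B cell fate and is turned off in plasma cells. It had 4.82 and 3.22 CPM in PDL110 and PDL18, against 2.90 and 5.86 CPM in CTR1 and CTR2. Its highest library was therefore an IgG one, and its log2 fold change was −0.12 ± 0.44. In GENCODE, Pax5 exons overlap those of antisense genes, and since the strand setting of the counting is not given, reads of either strand cannot be told apart.

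Cr2, on chromosome 1 from 195136811 to 195176716, encodes complement receptor 2 (CD21), found on mature B cells and on the follicular dendritic cells of lymphoid follicles. It had 6.82 and 3.09 CPM in PDL110 and PDL18, against 1.84 and 11.6 CPM in CTR1 and CTR2. CTR2 was the highest library, with PDL110 at 0.587 of it, and the log2 fold change of −0.44 ± 0.95 was the lowest of the 8 genes. Relative to Ms4a1, Cr2 was at 0.303 and 0.289 in PDL110 and PDL18, against 0.549 and 0.68 in CTR1 and CTR2. This ratio of CPM values did not overlap between groups, but 2 libraries against 2 allow no exact permutation p below 0.333. It also depended on the gene set below Cr2. Relative to Cd79a the groups did not overlap either, whereas relative to Cd79b, Blk or Pax5 they did.

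**Figure D1:**
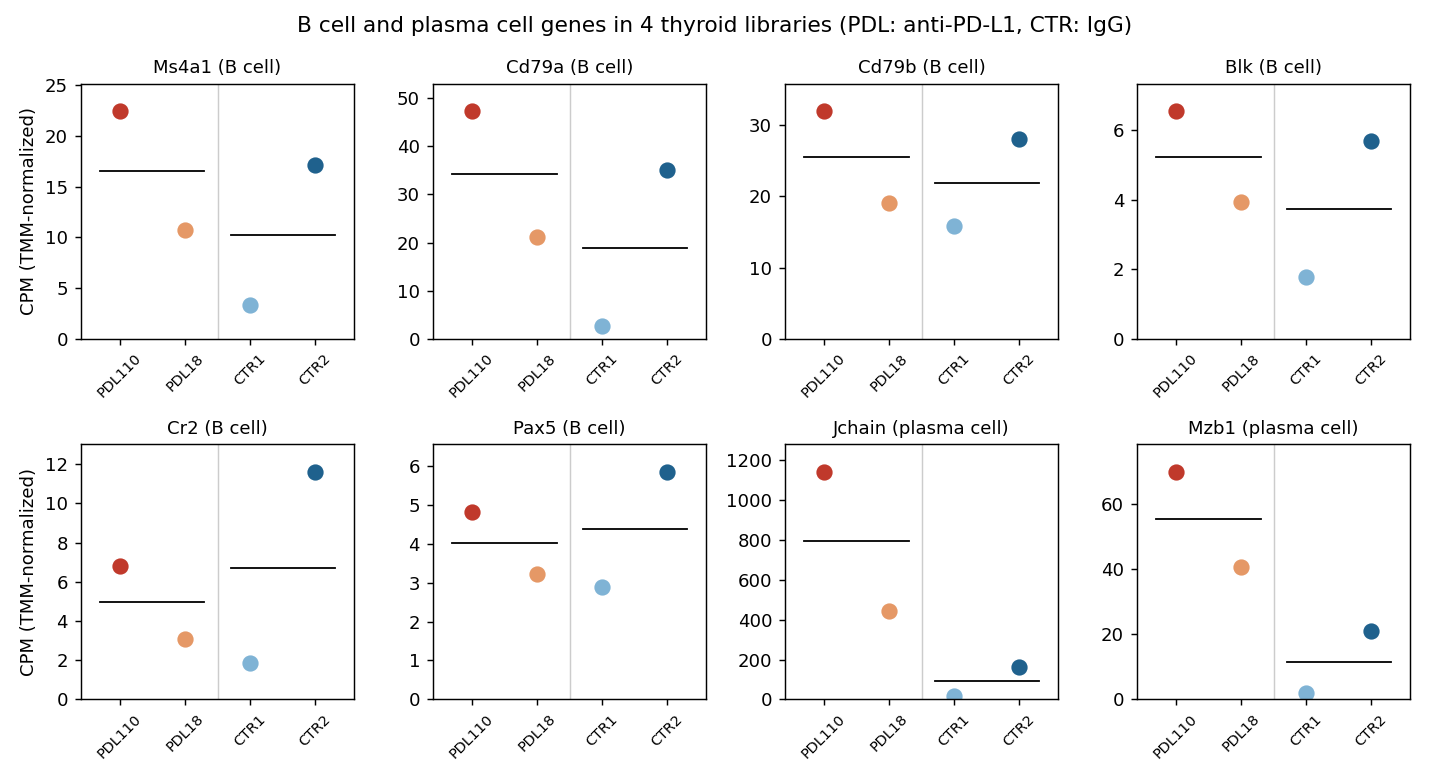
Normalized level of each of the 8 genes in CPM (vertical axis, linear, from 0) in the 4 libraries, anti-PD-L1 (PDL110, PDL18) left of IgG (CTR1, CTR2), with 1 point per library and a line at each group's mean. The 6 B cell genes overlap between groups with CTR1 lowest, while Jchain and Mzb1 are higher in PDL110 and PDL18 than in either IgG library.

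The plasma cell genes were higher in PDL110 and PDL18 than in either IgG library. This held for both listed genes, Jchain and Mzb1, while 16.5% of all tested genes separated upward. Both had the order PDL110, PDL18, CTR2, CTR1, found in 4.72% of tested genes. Neither passed the threshold with edgeR, and DESeq2 called Jchain alone. The median log2 fold change of the pair was 2.71. Their summed level was 1212 and 483.5 CPM in PDL110 and PDL18, against 18.3 and 185 CPM in CTR1 and CTR2.

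Jchain, on chromosome 5 from 88519809 to 88527891, encodes the small protein that joins IgA and IgM into polymers for secretion. It had 1142 and 443 CPM in PDL110 and PDL18, against 16.4 and 164 CPM in CTR1 and CTR2. The lower anti-PD-L1 library was 2.697 times the higher IgG library. The spread inside the groups was also large, a 2.58-fold difference between the anti-PD-L1 libraries and a 10.0-fold one between the IgG libraries. The log2 fold change of 3.13 ± 1.24 corresponds to an 8.78-fold higher level (edgeR adjusted p = 0.883, unadjusted p = 0.0602). DESeq2 gave an adjusted p of 0.0319 for it, and limma voom an adjusted p of 0.883.

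Mzb1, on chromosome 18, encodes an endoplasmic reticulum protein that helps assemble and secrete antibody and is also made by marginal zone B cells. It had 70.0 and 40.8 CPM in PDL110 and PDL18, against 1.88 and 21.01 CPM in CTR1 and CTR2. CTR1 was again far below the other 3 libraries, while PDL18 was 1.94 times CTR2. The log2 fold change of 2.28 ± 1.15 equals a ratio of 4.84 (edgeR adjusted p = 1.00, unadjusted p = 0.113; DESeq2 adjusted p = 0.305). In GENCODE another gene on the same strand shares 695 of the 1215 exon bases of Mzb1, and the labels do not say how reads of the shared bases were counted.

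The direction for the B cell genes depended on single libraries, and that for the plasma cell genes did not. Because Jchain and Mzb1 were both separated upward, leaving out 1 library could hardly change their sign. For that pair these fits therefore restate the separation, and only the sizes are new. With PDL110 left out, the median log2 fold change of the 6 B cell genes was −0.068, and with CTR1 left out it was −0.149. With CTR2 left out it was 1.49, and with PDL18 left out 0.661. Gene by gene without PDL110, the log2 fold change was 0.064 for Ms4a1, 0.167 for Cd79a and −0.20 for Cd79b. In the same fit it was 0.071 for Blk, −1.12 for Cr2 and −0.442 for Pax5. The log2 fold change of Jchain was 2.29 without PDL110, 3.64 without PDL18, 2.25 without CTR1 and 5.60 without CTR2. That of Mzb1 was 1.84, 2.59, 1.38 and 4.88 in the same order. For these 2 genes every value stayed above 0, while the size on the log2 scale changed by more than 1.5 times when CTR2 was left out, and for Mzb1 also when CTR1 was.

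**Figure D2:**
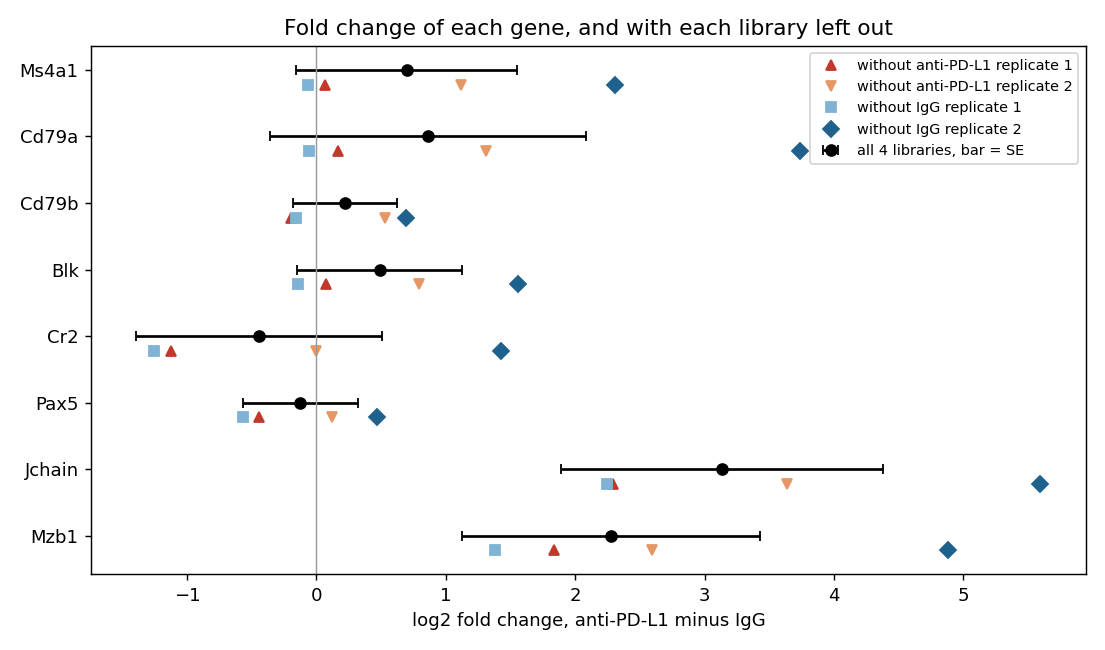
Log2 fold change, anti-PD-L1 minus IgG, for each gene (horizontal axis), with all 4 libraries as black points with bars of 1 SE and with each library left out in turn as coloured symbols. Jchain and Mzb1 stay between 1.38 and 5.60 in each of these fits, while each of the 6 B cell genes has symbols on both sides of 0.

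Set against each other within a library, the plasma cell genes were higher relative to the B cell genes after anti-PD-L1. The mean log2 CPM of Jchain and Mzb1 minus that of the 6 B cell genes was 4.34 and 4.17 in PDL110 and PDL18, against 0.75 and 2.10 in CTR1 and CTR2. The anti-PD-L1 libraries differed by less from each other than either did from an IgG library, and the mean difference between groups was 2.83. No p-value is given for this score, since its members were chosen with results of these data known.

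Ratios of CPM between named pairs showed the same separation. Such a ratio depends on the lengths of both transcripts, so it is compared here only between libraries. Jchain over Ms4a1 was 50.8 and 41.4 in PDL110 and PDL18, against 4.89 and 9.60 in CTR1 and CTR2. Mzb1 over Cd79a was 1.48 and 1.93 in PDL110 and PDL18, against 0.732 and 0.598 in CTR1 and CTR2. The groups did not overlap in either ratio. Within the plasma cell pair, Jchain over Mzb1 was 16.3 and 10.85 in PDL110 and PDL18, against 8.74 and 7.81 in CTR1 and CTR2.

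**Figure D3:**
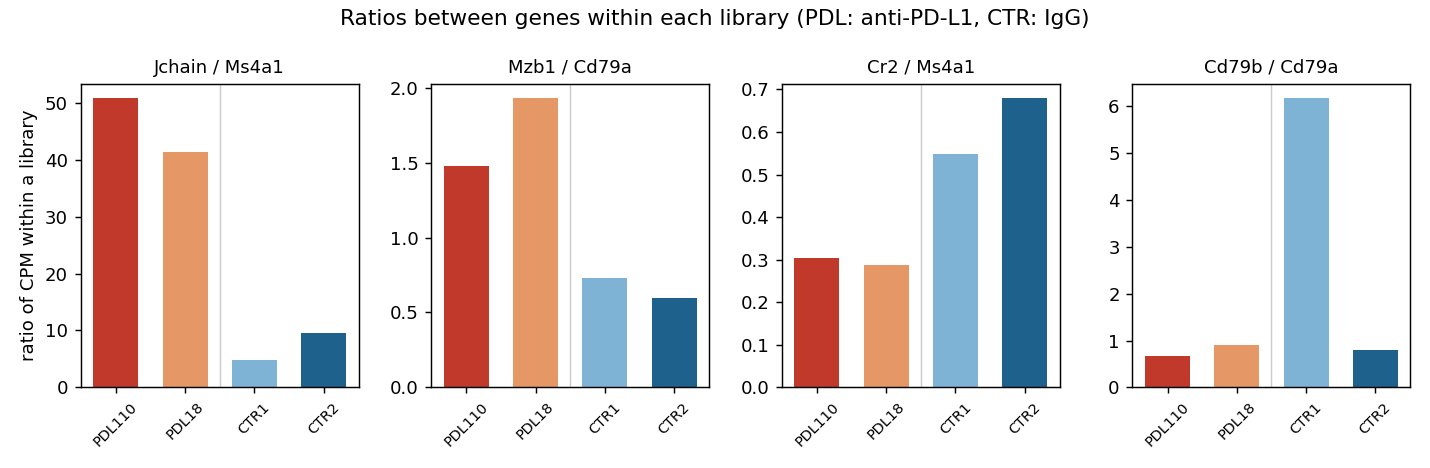
Ratio of CPM between pairs of genes within each library (vertical axis, bars from 0), anti-PD-L1 libraries left of IgG libraries, with 1 bar per library. Jchain over Ms4a1 and Mzb1 over Cd79a are higher in both anti-PD-L1 libraries, Cr2 over Ms4a1 is lower in both, and Cd79b over Cd79a is apart only in CTR1.

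Between PDL18 and CTR2 the 6 B cell genes and the pair Jchain and Mzb1 went opposite ways, which for the pair restates its upward separation. For the 6 B cell genes PDL18 was at 0.266 (Cr2) to 0.689 (Blk) of CTR2, while for Jchain and Mzb1 it was at 2.697 and 1.94 times CTR2. PDL110 was at 0.587 (Cr2) to 1.35 (Cd79a) times CTR2 for the B cell genes, and at 6.96 and 3.33 times CTR2 for Jchain and Mzb1. Over all tested genes the median of PDL18 over CTR2 was 1.00. The wider B cell lists described below did not share the direction of the 6 genes. Their median of PDL18 over CTR2 was 1.44 for receptor signalling, 1.27 for surface and follicle and 1.05 for transcription factors. In these lists PDL18 was below CTR2 for 6 of 24, 9 of 21 and 4 of 13 genes. Between the IgG libraries all 8 genes were higher in CTR2, by 1.78-fold (Cd79b) to 13.7-fold (Cd79a). CTR1 was the lowest library for all 8, and for 19.7% of the tested genes.

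**Figure D4:**
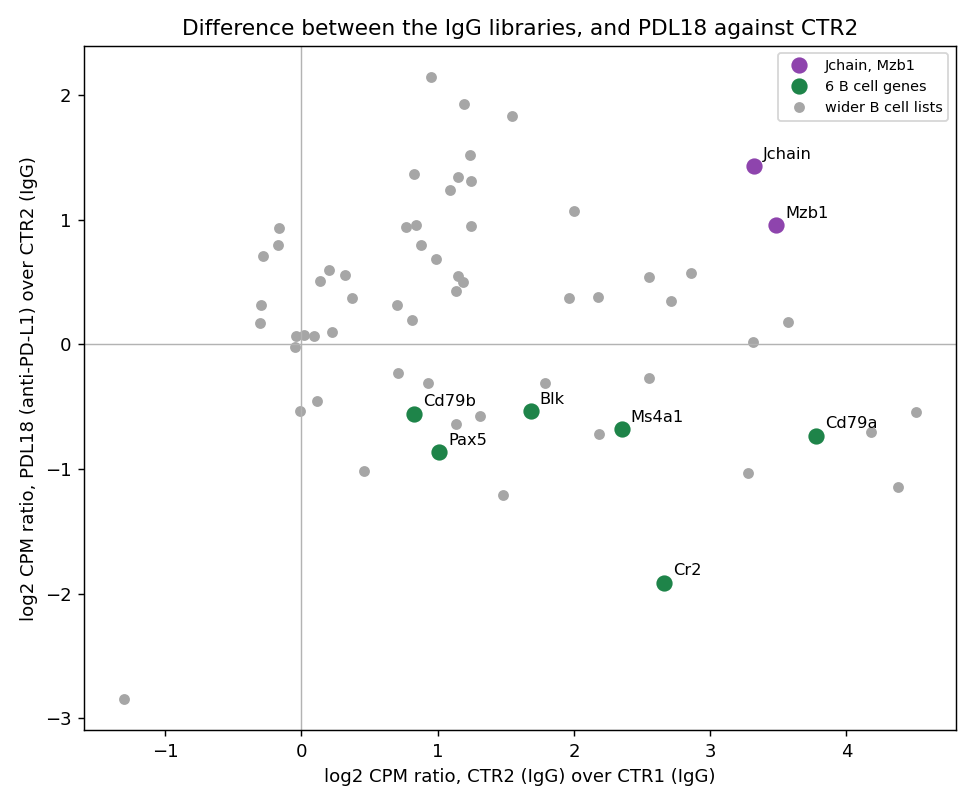
Log2 ratio of CPM in PDL18 over CTR2 (vertical axis) against that in CTR2 over CTR1 (horizontal axis), with 1 point per gene for Jchain and Mzb1 (purple), the 6 B cell genes (green) and the genes of 3 wider B cell lists (grey). All 8 genes lie right of 0, that is, higher in CTR2 than in CTR1, and only Jchain and Mzb1 among them lie above 0, that is, higher in PDL18 than in CTR2. In each of the 3 wider lists more genes lie above 0 than below.

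Levels of different genes were compared per kilobase of exon (CPM divided by the exon length in GENCODE). On that scale, in PDL110, Jchain was highest of the 8 at 454, followed by Mzb1 at 57.6, Cd79a at 32.5, Cd79b at 22.4, Ms4a1 at 3.63, Blk at 2.43, Cr2 at 0.841 and Pax5 at 0.544. In PDL18 Jchain was at 176 and Mzb1 at 33.6, and Cd79a and Cd79b were at 14.5 and 13.4. The order was different in the IgG library CTR1, where Cd79b at 11.1 was above Jchain at 6.51, Cd79a at 1.76 and Mzb1 at 1.54. In CTR2, Jchain at 65.2 was again the highest, and Mzb1 at 17.3 was below Cd79a at 24.1 and Cd79b at 19.6. Mzb1 thus ranked above the CD79 chains in both anti-PD-L1 libraries and below them in both IgG libraries. In mean CPM over the libraries, Jchain was at the 98.7 percentile of all tested genes.

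The region before the gene start is shown for Cd79a and Jchain, the B cell and the plasma cell gene with the largest fold change of each kind. RefSeq windows on GRCm38.p6, from 250 bases before to 50 bases after the start, were matched for 4 of the 8 genes (Cd79a, Jchain, Cr2 and Pax5) and not for Ms4a1, Cd79b, Blk and Mzb1. The Cd79a window is chr7:24897247-24897546 on the plus strand, and the Jchain window is chr5:88527848-88528147 on the minus strand. Positions are counted from the RefSeq start. The GENCODE start of Cd79a given above, 24897381, lies inside its window and before the RefSeq start. Capitals mark a match to the core bound by PU.1, a myeloid and B cell transcription factor.
Cd79a: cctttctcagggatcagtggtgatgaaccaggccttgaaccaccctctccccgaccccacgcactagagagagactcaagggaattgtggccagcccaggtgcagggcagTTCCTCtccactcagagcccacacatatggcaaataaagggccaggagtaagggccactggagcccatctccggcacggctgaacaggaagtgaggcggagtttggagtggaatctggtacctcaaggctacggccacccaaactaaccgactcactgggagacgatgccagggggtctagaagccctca
Jchain: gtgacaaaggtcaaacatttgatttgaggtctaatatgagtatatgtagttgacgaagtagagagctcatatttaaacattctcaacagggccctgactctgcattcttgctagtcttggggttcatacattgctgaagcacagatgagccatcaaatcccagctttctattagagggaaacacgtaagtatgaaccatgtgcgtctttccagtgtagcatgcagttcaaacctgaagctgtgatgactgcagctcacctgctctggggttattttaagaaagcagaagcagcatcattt
A set of 3 motifs were searched on both strands in the 4 windows: the octamer ATGCAAAT bound by OCT factors of B cells, CCCNNGGG bound by the B cell factor EBF1, and the PU.1 core GAGGAA. The Cd79a window held a PU.1 core, as its reverse complement TTCCTC, with its leftmost base at position −140 from the start, and no other match was found in the 4 windows. Of 32851 mouse windows of the same length, 28.3% held the PU.1 core, 13.7% the EBF1 motif and 1.74% the octamer. The motifs do not overlap in these windows. A match describes these letters and not a bound site.

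Wider lists of the pathway were chosen with earlier results of these data known, so their counts are descriptions. Of 24 genes of B cell receptor signalling, 0 passed the edgeR threshold over all genes. Of the 24, 15 were separated upward and 0 downward. Unadjusted p was under 0.05 for 11, all higher, and DESeq2 called 7, also all higher. The list's median log2 fold change was 0.91. The 4 genes of smallest p were Malt1, Cd180, Cd72 and Plcg2, genes of a signalling protease, a Toll-like receptor homologue, an inhibitory surface receptor and a phospholipase. Cd72 had 26.6 and 19.8 CPM in PDL110 and PDL18, against 1.90 and 5.55 CPM in CTR1 and CTR2 (log2 fold change 2.64 ± 0.58; edgeR adjusted p = 0.364, DESeq2 adjusted p = 2.52e-04). Cd180 had 12.3 and 16.7 CPM in PDL110 and PDL18, against 1.95 and 3.77 CPM in CTR1 and CTR2 (edgeR adjusted p = 0.244). Many of these genes are also expressed by myeloid cells or T cells.

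Among 13 transcription factors of B cells, 7 were separated upward and 0 downward, with a median log2 fold change of 0.72 (0.211 without PDL110). Irf8 and Spi1, the gene of PU.1, were the only 2 with an unadjusted p under 0.05 and the only 2 that DESeq2 called, and both also act in myeloid cells. Spi1 had 40.3 and 39.7 CPM in PDL110 and PDL18, against 5.87 and 13.8 CPM in CTR1 and CTR2 (log2 fold change 2.02 ± 0.45; edgeR adjusted p = 0.374). Ikzf1 and Pou2f2, next in p, had log2 fold changes of 1.69 ± 0.68 and 0.99 ± 0.43. Pou2af1, a coactivator of OCT factors in B and plasma cells that was chosen after its values were seen, had 28.5 and 15.8 CPM in PDL110 and PDL18, against 1.18 and 14.0 CPM in CTR1 and CTR2. It separated the groups by a narrow margin (log2 fold change 1.55 ± 1.15).

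Of 21 genes of the B cell surface and follicle, 12 were separated upward and 0 downward, 3 had an unadjusted p under 0.05, and the median was 0.61. Those 3, the MHC class II pathway genes Cd74 and H2-DMb2 and the costimulatory receptor gene Cd40, act in antigen-presenting cells of several kinds. Cd74 had 1844 and 1475 CPM in PDL110 and PDL18, against 169 and 387 CPM in CTR1 and CTR2 (log2 fold change 2.58 ± 0.53; edgeR adjusted p = 0.322). Cd38, the last of the 4 of smallest p, had a log2 fold change of 0.53 ± 0.20. A pair of genes more particular to B cells, Cxcr5 and Tnfrsf13c, chosen after their values were seen, had CTR2 as the highest library. Cxcr5, the receptor that guides B cells into follicles, had 8.97 and 6.41 CPM in PDL110 and PDL18, against 0.575 and 10.4 CPM in CTR1 and CTR2. Tnfrsf13c, the gene of the survival receptor BAFF-R, had 4.90 and 3.07 CPM in PDL110 and PDL18, against 0.325 and 6.78 CPM in CTR1 and CTR2.

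Of 15 listed genes of germinal centres and their helper T cells, 10 were separated upward and 0 downward, and the median was 1.04 (0.222 without PDL110). The 4 of smallest p were Gcsam, a germinal centre B cell gene, and Pdcd1, Icos and Sh2d1a, which are T cell genes. Gcsam had 3.92 and 4.01 CPM in PDL110 and PDL18, against 0.775 and 0.972 CPM in CTR1 and CTR2 (log2 fold change 2.18 ± 0.26; edgeR adjusted p = 0.17, DESeq2 adjusted p = 2.70e-07). In contrast with the 6 B cell genes, its IgG libraries were close together. Icos had 11.2 and 11.2 CPM in PDL110 and PDL18, against 0.438 and 2.47 CPM in CTR1 and CTR2. Pdcd1, the gene of PD-1 itself, had a log2 fold change of 3.596 ± 0.52.

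Of 22 listed genes of plasma cell identity and secretion, 11 were separated upward and 0 downward, but the median of 0.33 (0.556 without PDL110) was below that of Jchain and Mzb1. The 4 of smallest p were Edem1, Slamf7, Cd28 and Eaf2, and DESeq2 called these 4 alone in the list. Edem1, which clears misfolded proteins from the endoplasmic reticulum, had 181 and 191 CPM in PDL110 and PDL18, against 63.6 and 74.97 CPM in CTR1 and CTR2 (log2 fold change 1.43 ± 0.19; edgeR adjusted p = 0.179). Slamf7, a surface receptor of plasma cells and cytotoxic cells, had 4.33 and 4.47 CPM in PDL110 and PDL18, against 0.60 and 1.05 CPM in CTR1 and CTR2 (edgeR adjusted p = 0.201). The transcription factor genes Irf4, Prdm1 and Xbp1, which drive plasma cell formation and secretion and were chosen after their values were seen, had smaller differences than Jchain. Irf4 had 16.8 and 15.7 CPM in PDL110 and PDL18, against 2.38 and 11.2 CPM in CTR1 and CTR2, and was separated upward (log2 fold change 1.26 ± 0.75). Xbp1 was also separated upward, with 292 and 261 CPM in PDL110 and PDL18, against 198 and 243 CPM in CTR1 and CTR2 (log2 fold change 0.33 ± 0.22). Prdm1 overlapped and had 17.9 and 12.3 CPM in PDL110 and PDL18, against 20.04 and 7.85 CPM in CTR1 and CTR2. Sdc1 and Derl3 of the same list, also chosen after their values were seen, overlapped and had negative log2 fold changes. Sdc1 had 103 and 21.7 CPM in PDL110 and PDL18, against 176 and 83.6 CPM in CTR1 and CTR2. Its log2 fold change of −1.06 ± 0.83 was the lowest of the list. Derl3 had 25.1 and 50.9 CPM in PDL110 and PDL18, against 53.2 and 30.2 CPM in CTR1 and CTR2 (log2 fold change −0.13 ± 0.46). Prdm1 and Xbp1 are also expressed by epithelial cells. Immunoglobulin genes could not be set beside these: 0 of the 15 immunoglobulin symbols searched for were listed in the table, and they are not analysed here.

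Of 16 listed genes of B cell survival and homing, 9 were separated upward and 1 downward, with a median of 0.58. The gene separated downward, Il5, was named after its values were seen. The 4 of smallest p were Ccr9, Tgfb1, Itgb7 and Cxcl13. Cxcl13, the chemokine that draws B cells into follicles, had 99.7 and 56.7 CPM in PDL110 and PDL18, against 10.1 and 29.1 CPM in CTR1 and CTR2 (log2 fold change 2.00 ± 0.61; edgeR adjusted p = 0.611, DESeq2 adjusted p = 0.0248). Itgb7, an integrin chain for homing to mucosa, had 38.1 and 52.4 CPM in PDL110 and PDL18, against 8.004 and 19.6 CPM in CTR1 and CTR2. Of the survival cytokines, Tnfsf13b (BAFF) had 4.60 and 3.58 CPM in PDL110 and PDL18, against 1.24 and 2.74 CPM in CTR1 and CTR2. Tnfsf13 (APRIL) had 14.6 and 11.7 CPM in PDL110 and PDL18, against 14.7 and 14.5 CPM in CTR1 and CTR2. These 2 cytokines were chosen after their values were seen.

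Markers of mucosal glands moved with the B cell genes. The 18 mucosal gland markers sum to 34520 and 11150 CPM in PDL110 and PDL18, against 4847 and 23150 CPM in CTR1 and CTR2, which is the library order of the B cell genes. Of the 18, 1 was separated upward, 0 downward, and 0 were at 0 in any library. Their median log2 fold change was 0.287, and −0.667 without PDL110. Plasma cells that make polymeric IgA are normal residents of mucosal glands. Pigr, the epithelial receptor that carries such IgA into secretions, chosen after its values were seen, had 455 and 179 CPM in PDL110 and PDL18, against 81.1 and 658 CPM in CTR1 and CTR2. Jchain over Pigr, likewise chosen, was 2.51 and 2.475 in PDL110 and PDL18, against 0.202 and 0.249 in CTR1 and CTR2. This ratio did not overlap between groups, but Pigr was picked from 18 markers and the ratio describes that pair alone. Bpifb1, another of the 18 and chosen after its values were seen, had 8125 and 328 CPM in PDL110 and PDL18, against 807 and 1668 CPM in CTR1 and CTR2. Jchain was not set against the other mucosal markers. Ms4a1 over Pigr was 0.0494 and 0.0598 in PDL110 and PDL18, against 0.0414 and 0.026 in CTR1 and CTR2. The 12 listed markers of follicular dendritic cells and high endothelial venules, the vessels through which lymphocytes enter lymph nodes, sum to 626 and 443 CPM in PDL110 and PDL18, against 277.5 and 418 CPM in CTR1 and CTR2. Of these 12, 4 were separated upward and 0 downward, and DESeq2 called Vcam1 alone. That list includes Cr2 itself, and its mean deviation in log2 CPM was 0.634 and −0.316 in PDL110 and PDL18, against −1.07 and 0.752 in CTR1 and CTR2. The part of these tissues in the levels of the 8 genes was not tested.

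T cell markers did not follow the B cell order. All 16 listed T cell markers were separated upward, with sums of 241 and 246 CPM in PDL110 and PDL18, against 58.3 and 97.2 CPM in CTR1 and CTR2. Of 14 macrophage markers, 9 were, with a median log2 fold change of 1.18. The macrophage sums were 12640 and 3234 CPM in PDL110 and PDL18, against 1140 and 5822 CPM in CTR1 and CTR2, in the library order of the B cell genes. Most of each sum came from Lyz2, a lysozyme gene named after its values were seen, which had 11721 and 2416 CPM in PDL110 and PDL18, against 879 and 5483 CPM in CTR1 and CTR2. Of 10 listed markers of plasmacytoid dendritic cells, 7 were separated upward and 0 downward, with a median log2 fold change of 1.25. The part of T cells, macrophages and plasmacytoid dendritic cells in the levels of the 8 genes was not tested. The 11 squamous epithelium markers sum to 5870 and 111 CPM in PDL110 and PDL18, against 13210 and 3558 CPM in CTR1 and CTR2, an order unlike that of any of the 8 genes, and their median log2 fold change was −1.66, and −5.63 without PDL110.

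**Figure D5:**
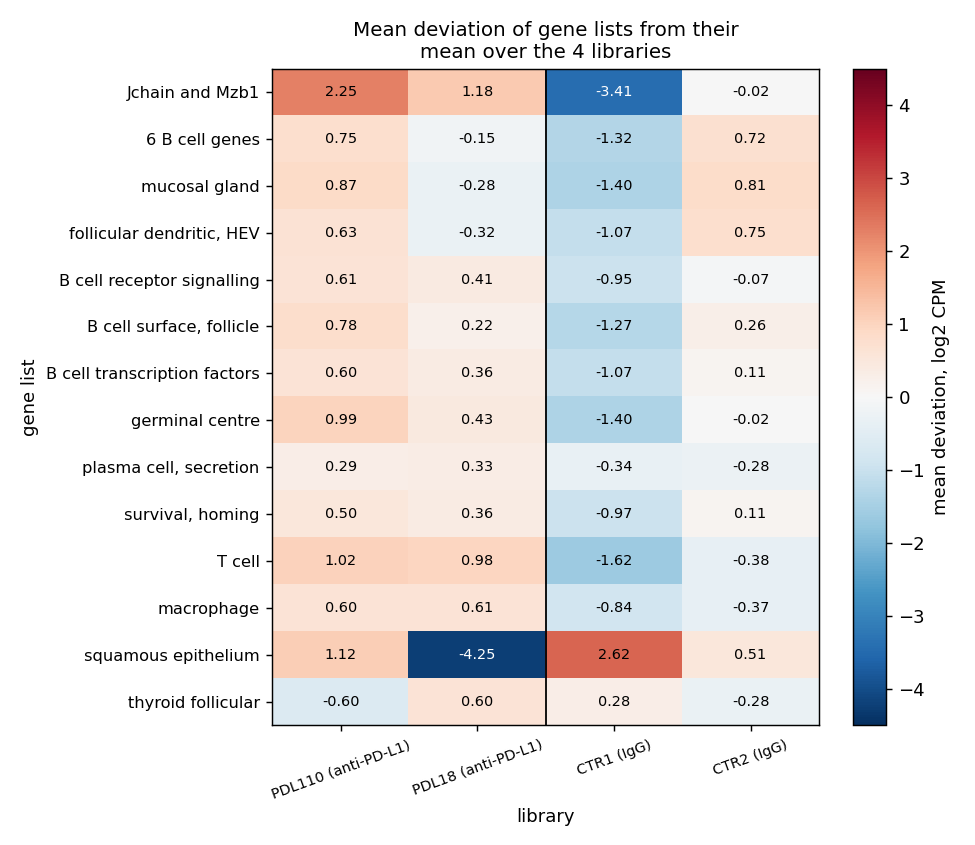
Mean deviation of each gene list in each library (columns, anti-PD-L1 left of IgG) from the list's mean over the 4 libraries, in log2 CPM; red is higher and blue lower. The 6 B cell genes (0.75, −0.15, −1.32 and 0.72) run with the mucosal gland list, whereas Jchain and Mzb1 (2.25, 1.18, −3.41 and −0.02) are high in both anti-PD-L1 libraries and near their mean in CTR2.

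Genes were ranked by the distance between their own pattern over the 4 libraries and the mean pattern of each group, using log2 CPM centred on each gene's mean. Among 16054 genes, the nearest to the B cell pattern were Creb3l1, Ccdc146, Chrm3, Bank1, Henmt1 and Speer6-ps1, at distances of 0.134 to 0.278. Of these, Bank1, a B cell adaptor, had 8.002 and 4.34 CPM in PDL110 and PDL18, against 1.58 and 7.17 CPM in CTR1 and CTR2. Chrm3, the gene of a muscarinic receptor of glands and smooth muscle, had 3.66 and 2.20 CPM in PDL110 and PDL18, against 0.975 and 4.15 CPM in CTR1 and CTR2. The nearest to the plasma cell pattern were Ubd, Lax1, Cst7, Cd2, H2-M2 and Art2a-ps, at distances of 0.485 to 0.89. Ubd, which encodes an interferon-inducible ubiquitin-like protein, had 52.75 and 18.2 CPM in PDL110 and PDL18, against 0.975 and 7.45 CPM in CTR1 and CTR2. Lax1, a lymphocyte adaptor, had 10.8 and 6.29 CPM in PDL110 and PDL18, against 0.375 and 2.94 CPM in CTR1 and CTR2. With only 4 libraries, such likeness is a description.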

How the data were processed

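The authors deposited 1 table of expected counts, without normalization, with a column per library and a row per gene symbol. Libraries were poly(A)-selected and paired-end, per the labels' protocols, and BWA and mm10 are named in the submitters' processing notes with no role or version. The counter, annotation and strand setting were not given in the sources used here. Blank cells (13 in 12 genes, none a member) were read as 0 and counts rounded. Tests used edgeR 4.0.16 in R 4.3.3 (filterByExpr, TMM, robust quasi-likelihood F test, 2 residual degrees of freedom), Benjamini-Hochberg adjustment over 16217 genes, a threshold of 0.05, two-sided. Standard errors were derived from the F statistic and the log2 fold change. Log2 CPM used a prior count of 2. Positions and exon lengths came from GENCODE M21 on GRCm38. Alternatives used DESeq2 1.42.0 and limma 3.58.1, other scalings and filters, the replicate block and each library left out. The tests were also run on simulated counts, in which libraries of a group shared the same expected level per gene. Those counts hold no library that stands apart as PDL110 or CTR1 did here.

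The members and lists were chosen with earlier results of these data known. Named genes are the 8 members, the 4 genes of smallest p in each wider pathway list and the 6 nearest genes per pattern with a mean of at least 1 CPM, and other genes are marked in the text as picked with their values known, apart from Tg, Xist and Ddx3y, which check the libraries. Nothing says whether replicates came from separate experiments, so p-values measure the spread between these samples. At this depth 3 counts correspond to 0.037 to 0.0408 CPM, for counting error only. The 2 libraries of each group differed by far more than counting noise (chi-square over degrees of freedom of 1056 for anti-PD-L1 and 321 for IgG).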

Additional observations from a re-analysis of the deposited data

How the results depend on the processing

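Scaling by RLE, upper quartile or library size alone, no filter, the stricter filter and limma voom kept the direction of each of the 8 genes and called 0 genes in all, and these scalings moved the median of all genes by at most 0.02. DESeq2 called 528 genes against 0 with edgeR, Jchain among them. With each library left out in turn, edgeR called 0 genes each time (673 to 2253 at an unadjusted p under 0.05), the B cell median ranged from −0.149 to 1.49, the plasma cell median from 1.81 to 5.24 and the plasma minus B cell difference from 2.15 to 3.51. The single-gene log2 fold changes that changed sign ranged over those fits from −0.066 to 2.31 for Ms4a1, −0.057 to 3.74 for Cd79a, −0.20 to 0.692 for Cd79b, −0.142 to 1.56 for Blk, −1.25 to 1.43 for Cr2 and −0.564 to 0.47 for Pax5. A fit on 1 library in a group assumes that it varies like the other group. Deviations of same-numbered libraries correlated at 0.10 across 16217 genes, and the labels do not say that numbers pair the mice. With the replicate block 0 genes were called, the B cell median was 0.447 and the plasma cell median 3.41, and no direction changed. For the wider lists, the mucosal gland median changed sign, to −0.667, without PDL110, an alternative chosen after seeing the data. The plasma minus B cell difference was 3.59 between the libraries numbered 1 and 2.07 between those numbered 2, with the same mean of 2.83.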

Other observations

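Genes of lymphoid follicles and of their vessels, chosen after their values were seen, did not share a single pattern. Vcam1, an adhesion molecule of follicular dendritic cells and activated vessels, had 73.9 and 66.9 CPM in PDL110 and PDL18 (anti-PD-L1), against 7.87 and 23.3 CPM in CTR1 and CTR2 (IgG). It was separated upward (log2 fold change 2.18 ± 0.56; edgeR adjusted p = 0.469, DESeq2 adjusted p = 0.00367), as were Tnfsf11, C4b and Clu of the same list. Rgs13, a germinal centre gene, had 1.65 and 0.148 CPM in PDL110 and PDL18 (anti-PD-L1), against 0.075 and 0.473 CPM in CTR1 and CTR2 (IgG). It was highest in PDL110 and next highest in CTR2, the libraries with the most Ms4a1. Glycam1, a ligand on high endothelial venules that is also made by secretory glands, had 4.86 and 0.716 CPM in PDL110 and PDL18, against 0.80 and 39.1 CPM in CTR1 and CTR2, so CTR2 stood apart from the other 3. Spib, a transcription factor of B cells and of some mucosal epithelia, had 42.4 and 23.8 CPM in PDL110 and PDL18, against 1.53 and 34.8 CPM in CTR1 and CTR2.

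A pair of homing genes of mucosal antibody-secreting cells, chosen after their values were seen, did not share the pattern of Jchain, while others of the same list were separated upward. Ccl28, the mucosal chemokine for IgA plasma cells, had 21.9 and 10.9 CPM in PDL110 and PDL18, against 5.75 and 53.3 CPM in CTR1 and CTR2. Its receptor gene Ccr10 had 1.55 and 1.72 CPM in PDL110 and PDL18, against 0.538 and 2.01 CPM in CTR1 and CTR2. For both genes CTR2 was the highest library. Cxcr4, a chemokine receptor that holds plasma cells in bone marrow and was chosen in the same way, had 24.2 and 16.9 CPM in PDL110 and PDL18, against 1.76 and 10.4 CPM in CTR1 and CTR2, the library order of Jchain (log2 fold change 1.75 ± 0.87). Ccr9, a receptor for homing to the gut, had 4.64 and 4.53 CPM in PDL110 and PDL18, against 2.05 and 1.34 CPM in CTR1 and CTR2, and Itgb7 was also separated upward.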
